A study of Mus musculus with 14 samples.

Results

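The levels of 10 C-type lectin and collectin genes were followed in mast cells sorted from mouse ear skin, out of 55487 genes in the deposited count table. The 10 genes were Olr1, Clec10a, Colec11, Colec12, Clec4d, Clec4e, Clec4n, Clec7a, Clec12a and Clec2d, matched by gene identifier to their symbols. Olr1, Clec10a and Colec11 were chosen by their levels in these same libraries and by the differences between the groups, so their values are given as a description without a test, and the other 7 were taken with them as members of the same families. There were 14 RNA sequencing libraries, each made from a pool of at most 100 sorted cells from both ears. Resident mast cells of untreated mice gave 5 libraries (numbered 1 to 5). Mice treated with MC903 gave 5 libraries of resident mast cells (6 to 10) and 4 libraries labelled as bone marrow mast cells (11, 13, 14 and 15). MC903 is calcipotriol, a vitamin D analogue that is used on mouse skin to produce a dermatitis resembling atopic dermatitis. The protocol speaks of resident and integrin β7-positive mast cells and not of bone marrow, so the bone marrow group is named here only as its label has it. Dose and days of MC903, strain, sex and age of the mice were not given in the sources used here. The labels do not say that the libraries came from separate animals, so p-values measure only the spread between these samples.

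C-type lectins share a fold that in many of them binds sugars in the presence of calcium, and collectins join such a domain to a collagen-like stalk. Several C-type lectin receptors of myeloid cells recognise fungal or bacterial glycans and glycolipids and signal through Syk and CARD9, either by a motif of their own or through the Fc receptor gamma chain that mast cells also use for the IgE receptor. Other members of the fold bind lipoproteins or protein ligands, and soluble collectins can start the lectin pathway of complement.

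Total counts ranged from 13068078 to 31781926 per library. Values are CPM, which are counts brought to a common library depth with TMM factors, and a gene with 3 counts or fewer in a library is said to be at the floor (0.104 to 0.193 CPM). All 12 mast cell markers examined, among them Kit, Cpa3, Tpsb2 and Cma1, were over the floor in all 14 libraries. Bone marrow library 15 stood apart: its 17 macrophage and dendritic cell markers summed to 16903 CPM with 16 over the floor, against 39.9 to 383.9 CPM and 6 to 11 markers over the floor in the other 3 bone marrow libraries. The same sum was 42.8 to 149.3 CPM in untreated resident and 47.1 to 166.6 CPM in MC903 resident libraries. In library 15 the macrophage genes C1qb, C1qc and Csf1r were at 2252, 1749 and 1100.3 CPM, and the antigen-presentation genes Cd74, H2-Ab1, H2-Aa and H2-Eb1, which dendritic cells also express, were at 2712, 945, 716 and 494 CPM. The dendritic cell markers Itgax, Flt3 and Ccr7 were at 2.63, 1.26 and 0 CPM there. Clec9a and Cd207, lectin genes of dendritic subsets and Langerhans cells that are not among the 17, were at 0 and 0.152 CPM. Mgl2, another lectin gene not among the 17, was at 707 CPM in library 15. Whether dendritic cells were part of that library was not tested. Markers of other cells differed too. The 10 T and NK cell markers summed to 155 to 368 CPM in bone marrow libraries, against 11.97 to 39.6 CPM in untreated and 34.4 to 88.2 CPM in MC903 resident ones. Nkg7 made up most of that sum in every library. Over the floor were 2, 1, 8 and 6 of the 10 in bone marrow libraries 11, 13, 14 and 15. In untreated libraries 3 to 5 were over the floor, and in MC903 resident ones 3 to 7. The basophil protease gene Mcpt8 was at 976, 205, 83.2 and 46.5 CPM in bone marrow libraries 11, 13, 14 and 15. In resident libraries it reached at most 57.0 CPM. Other genes of its list did not all follow it. Prss34 was at 4.76, 15.8, 0.383 and 0 CPM in those libraries and highest in resident library 7, at 42.0 CPM. Siglecf was at 0 CPM in all of them, and Ccr3 at 3.09, 0, 4.59 and 1.72 CPM. The 6 basophil and eosinophil markers summed to 1509, 751, 668 and 272 CPM there. Their sum was 485 to 735 CPM in untreated and 434 to 663 CPM in MC903 resident libraries. The part of such cells in the results on bone marrow libraries was not tested. Values for bone marrow cells are also given without library 15 for each sparse member with a fold and each gene named as called.

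**Figure D1:**
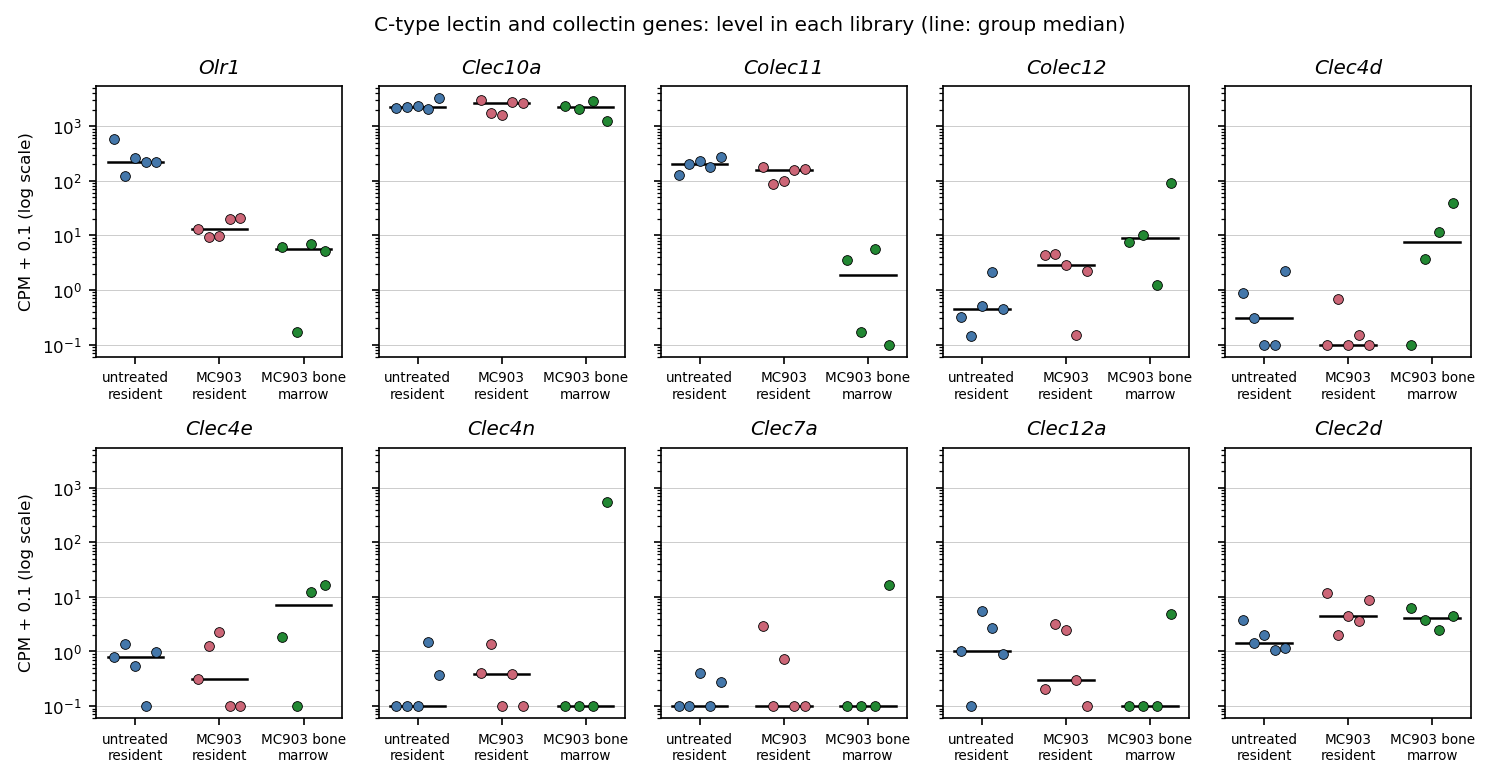
Level of each of the 10 genes in each library, as CPM plus 0.1 on a log axis, by group. Points are libraries and lines are group medians. Clec10a lies between 1241 and 3263 CPM in all 14 libraries, Olr1 is high only among untreated libraries, Colec11 is low in all 4 bone marrow libraries, and Clec4n has a single high point, bone marrow library 15.

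The 10 genes fell into an abundant trio and 7 sparse genes. Divided by gene length, the median level in untreated resident cells was 793 CPM per kb for Clec10a (range 728 to 1126), 125 for Colec11 (78.5 to 169) and 61.4 for Olr1 (34.5 to 161), and the ranges of Colec11 and Olr1 overlapped. Next came Clec2d at a median of 1.11 CPM per kb, and the remaining 6 were at 0.163 CPM per kb or less there, with Clec4n and Clec7a at a median of 0. In MC903 resident cells the order was Clec10a at 925 CPM per kb, Colec11 at 96.2 and Olr1 at 3.69, the last overlapping in range with Clec2d at 3.60. In bone marrow cells Clec10a was at 768 CPM per kb. The next in order there were Clec4d at 4.72, Clec2d at 3.32, Olr1 at 1.53, Clec4e at 1.43, Colec11 at 1.08 and Colec12 at 1.01 CPM per kb. The ranges overlapped from each to the next, except that Clec2d (1.96 to 5.13) lay just above Olr1 (0.0194 to 1.94). A filter on low counts kept 8 of the 10 genes for the model fit; Clec4n and Clec7a did not pass it and have levels only.

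Olr1 (ENSMUSG00000030162.14, GRCm38 chromosome 6, 129485244 to 129507165, minus strand) encodes LOX-1, a scavenger receptor for oxidised low-density lipoprotein best known from endothelium. It was at 574, 123, 264.9, 219 and 219 CPM in untreated libraries 1 to 5. In MC903 resident libraries 6 to 10 it was at 13.2, 9.06, 9.77, 20.01 and 21.01 CPM. In bone marrow libraries 11, 13, 14 and 15 it was at 5.93, 0.0693, 6.93 and 5.0 CPM, the second of these resting on 2 counts. No library of any group overlapped those of another, and library 15 lay among the other bone marrow libraries. The means were 280.2 ± 172 (SD, n = 5), 14.6 ± 5.62 (SD, n = 5) and 4.48 ± 3.05 CPM (SD, n = 4). The fitted log2 fold change was -4.26 ± 0.775 (SE) in MC903 resident against untreated resident cells. Among all 21014 genes fitted, the groups did not overlap, with the MC903 resident libraries lower, for 3.16%. For bone marrow cells it was -1.71 ± 0.767 against MC903 resident cells, and -5.97 ± 0.933 against untreated resident cells. The comparisons share their libraries, and because these 3 values helped choose the gene, nothing further is read from them. Leaving out any 1 library kept the first of these values between -4.44 and -3.82. Over all alternatives run, the second ran from -2.86 to -1.32 and the third from -7.10 to -5.53. These are pools of cells, so fewer cells with the transcript and less transcript per cell cannot be told apart, here and for the other genes.

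The 250 bases before the RefSeq start of Olr1 (GRCm38.p6, chr6:129507166-129507415, minus strand) and of Colec11 (chr12:28623331-28623580, minus strand) are shown because these are the 2 abundant members whose levels differed most between groups. Both strands were searched for the AP-1 motif TGANTCA, the GATA motif AGATAA, the E-box motifs CACGTG and CATGTG, the cyclic AMP response motif TGACGT and the ETS motif ACTTCC, none of which overlapped another in these windows. The deposited gene model of Colec11 begins inside its window. Capitals mark the matches.
Olr1: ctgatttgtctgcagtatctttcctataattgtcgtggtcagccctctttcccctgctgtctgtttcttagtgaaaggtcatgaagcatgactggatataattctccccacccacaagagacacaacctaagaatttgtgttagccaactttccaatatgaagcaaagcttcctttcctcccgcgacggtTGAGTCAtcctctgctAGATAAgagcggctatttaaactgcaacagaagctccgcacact
Colec11: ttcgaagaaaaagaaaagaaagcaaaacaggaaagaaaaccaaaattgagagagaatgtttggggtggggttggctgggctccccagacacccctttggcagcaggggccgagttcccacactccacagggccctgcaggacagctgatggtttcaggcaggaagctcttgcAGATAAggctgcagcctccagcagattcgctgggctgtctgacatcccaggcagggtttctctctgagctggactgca
The Olr1 window held the AP-1 motif 60 to 54 bases and the GATA motif 44 to 39 bases before the start, and the Colec11 window held the GATA motif 78 to 73 bases before the start. Among 32851 RefSeq windows of the same length, 6.75% held the AP-1 motif and 9.99% the GATA motif. Of the 10 genes 7 had a window in the RefSeq table; Clec10a, Colec12 and Clec4n did not. Of the other 5, Clec12a held an AP-1 motif 213 to 207 bases before the start. Its window (129349994 to 129350243, plus strand) lies inside the deposited gene model, which begins at 129342691. Clec4d held the E-box CATGTG (12.3% of all windows) and the ETS motif (19.7%). Clec4e, Clec7a and Clec2d held none of these letters. A match describes the sequence and does not show a bound site.

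Colec11 (ENSMUSG00000036655.8, chromosome 12, 28594173 to 28623377, minus strand) encodes collectin-11, a soluble collectin that binds sugars on microbes and activates complement with the MASP proteases. It was at 127, 202, 231, 176 and 274 CPM in untreated libraries 1 to 5 and at 179.9, 88.0, 98.2, 156 and 163 CPM in MC903 resident libraries 6 to 10. In bone marrow libraries 11, 13, 14 and 15 it was at 3.42, 0.0693, 5.44 and 0 CPM, the second again from 2 counts. The 2 resident groups overlapped, and all 4 bone marrow libraries lay below every resident library. The means were 202 ± 55.5 (SD, n = 5), 137 ± 41.2 (SD, n = 5) and 2.23 ± 2.67 CPM (SD, n = 4). The fitted log2 fold change was -0.56 ± 0.808 (SE) in MC903 resident against untreated resident cells. In bone marrow cells it was -5.94 ± 1.11 against MC903 resident cells and -6.50 ± 1.14 against untreated resident cells. Without library 15 these values were -5.52 and -6.09. Over all alternatives run, they ran from -7.49 to -5.52 and from -8.07 to -6.09. Libraries did not overlap, with bone marrow lower, for 4.32% and 5.28% of all genes fitted in these 2 comparisons. Colec11 thus separated bone marrow from resident libraries, whereas Olr1 separated untreated libraries from all others; both patterns were part of the choice of genes.

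Clec10a (ENSMUSG00000000318.16, chromosome 11, 70156197 to 70170834, plus strand) encodes a galactose-type lectin, also called MGL1 or CD301a, known as a receptor of macrophages and dendritic cells. It was at 2206, 2298, 2408, 2109.8 and 3263 CPM in untreated libraries 1 to 5. In MC903 resident libraries 6 to 10 it was at 3026, 1763, 1619.9, 2772 and 2681 CPM. Bone marrow libraries 11, 13, 14 and 15 had 2345, 2111, 2927 and 1241 CPM. All groups overlapped, and the lowest of the 14 values belonged to library 15, the library with the highest macrophage marker sum. The fitted log2 fold changes were -0.05 ± 0.216 (SE) for MC903 resident against untreated resident, -0.14 ± 0.229 for bone marrow against MC903 resident and -0.19 ± 0.230 when bone marrow libraries were set against untreated ones. The sign of these small values is not stable: the first was 0.12 with scaling factors taken from the more abundant genes (mean over 10 CPM), and the other two were 0.0615 and 0.0049 without library 15. The neighbouring paralog Mgl2 encodes the related lectin CD301b and was looked at after its values were seen. Of its transcript 50-mers 13.1% are shared with other genes, Clec10a among them, and 9.02% of those of Clec10a occur elsewhere. Mgl2 was at 0.924 to 4.46 CPM in 13 libraries and at 707 CPM in library 15. High Clec10a with Mgl2 under 5 CPM was thus found in every library except 15, where both were abundant.

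Colec12 (ENSMUSG00000036103.9, chromosome 18, 9707595 to 9882644, plus strand) encodes collectin-12, a membrane collectin and scavenger receptor. It was at 0.226, 0.0408, 0.411, 2.03 and 0.356 CPM in untreated libraries. MC903 resident libraries had 4.36, 4.56, 2.83, 0.0485 and 2.14 CPM. In bone marrow libraries 11, 13, 14 and 15 it was at 7.51, 10.05, 1.15 and 89.8 CPM. The groups overlapped in all 3 comparisons, and library 15 was far above the rest. Colec12 rose in bone marrow against untreated resident cells, by 5.46 on the log2 scale (SE 1.27; adjusted p = 0.00979, from the edgeR fit over all genes). This call was lost without library 15, at 3.34 ± 1.41 (edgeR adjusted p = 0.148), and in limma voom (adjusted p = 0.0637). Over all alternatives the adjusted p in edgeR, DESeq2 or limma ran from 3.886e-08 to 0.148. Library 15 also had the highest macrophage and dendritic cell marker sum. Library 14, with the next highest sum of 383.9 CPM, had the lowest Colec12 of the bone marrow group. The part of such cells in the Colec12 result was not tested beyond leaving out library 15. Of the 5 fitted genes that were not picked, Colec12 alone passed in this comparison, while 6.87% of all genes fitted did and 3.49% were called higher; without library 15 none of the 5 passed in edgeR, and 6.36% of all genes did. Against MC903 resident cells the log2 difference was 3.28 ± 1.15 (edgeR adjusted p = 0.144; 0.0446 in the DESeq2 Wald test and 0.00250 in edgeR with no filter on low counts), and 1.17 ± 1.36 without library 15 (edgeR adjusted p = 0.598). In MC903 resident against untreated resident cells it was 2.17 ± 1.09 (edgeR adjusted p = 0.433).

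Clec4d, Clec4e and Clec4n lie together on chromosome 6 between 123229843 and 123289870, and encode MCL, Mincle and Dectin-2. Mincle and MCL recognise mycobacterial cord factor and Dectin-2 recognises mannans, all through the Fc receptor gamma chain. Clec4d was at 0.790, 0.204, 0, 0 and 2.14 CPM in untreated libraries. MC903 resident libraries had 0, 0.577, 0, 0.0485 and 0 CPM, and bone marrow libraries 11, 13, 14 and 15 had 0, 3.60, 11.5 and 39.2 CPM. Clec4e was at 0.677, 1.27, 0.449, 0 and 0.890 CPM in untreated, 0.207, 1.15, 2.19, 0 and 0 CPM in MC903 resident and 1.75, 0, 12.4 and 16.8 CPM in bone marrow libraries. For both genes at least 1 bone marrow library was at 0 while library 15 had the highest value of the 14, followed by library 14. Library 14 also had the second highest macrophage and dendritic cell marker sum, 383.9 CPM. The groups overlapped for both.

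The log2 difference of Clec4d was 6.72 ± 2.02 (SE) in bone marrow against MC903 resident cells (edgeR adjusted p = 0.0922) and 5.28 without library 15 (edgeR adjusted p = 0.114). It was past the threshold without library 11, which had no count of it (7.13, edgeR adjusted p = 0.0433), and with no filter on low counts (0.000281). Against untreated resident cells it was 4.43 ± 1.81 (edgeR adjusted p = 0.154, and 0.0164 with no filter on low counts), and 3.01 without library 15 (0.313). The log2 difference of Clec4e was 3.44 ± 1.76 against MC903 resident cells (edgeR adjusted p = 0.315) and 3.55 ± 1.76 against untreated resident cells (edgeR adjusted p = 0.255). Without library 15 these were 2.73 and 2.83 (edgeR adjusted p = 0.324 and 0.313). Neither gene differed past the threshold between the resident groups, with -2.29 ± 1.68 for Clec4d (edgeR adjusted p = 0.671) and 0.10 ± 1.57 for Clec4e (edgeR adjusted p = 0.994).

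Clec4n and Clec7a are the members seen at a high level in library 15 alone. Clec7a encodes Dectin-1, the receptor for fungal β-glucans that signals through its own cytoplasmic motif. Clec4n had 10842 counts or 548 CPM in library 15, none in bone marrow libraries 11, 13 and 14, and at most 1.42 CPM in the 10 resident libraries. Clec7a had 16.6 CPM in library 15, none in the other 3 bone marrow libraries and at most 2.80 CPM in resident libraries. A gene of which nothing was counted in a library could still be present at up to the floor there, and this limit covers counting error only. The macrophage markers and these 2 genes were high in the same library; whether they came from the same cells was not tested.

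Clec12a encodes an inhibitory receptor of myeloid cells that recognises uric acid crystals, and Clec2d encodes a lectin-like ligand of the Nkrp1 (Klrb1) receptors of natural killer cells. Clec12a ranged from 0 to 5.35 CPM in untreated libraries (median 0.903), from 0 to 3.06 CPM in MC903 resident libraries (median 0.194), and was at 0 in all bone marrow libraries but 15, which had 4.85 CPM. Its log2 differences were -0.75 ± 1.90 (SE) for MC903 resident against untreated resident cells (edgeR adjusted p = 0.937), 0.08 ± 2.0 in bone marrow against MC903 resident cells (0.990) and -0.67 ± 2.02 against untreated cells (0.906). Without library 15 the remaining bone marrow libraries had no count of it, so a fitted value against them measures no fold and is no bound. Clec2d was at 3.61, 1.35, 1.91, 0.946 and 1.07 CPM in untreated libraries. MC903 resident libraries had 11.6, 1.90, 4.37, 3.49 and 8.82 CPM, and bone marrow libraries had 6.22, 3.71, 2.38 and 4.34 CPM. It was the only one of the 7 sparse genes over the floor in all 14 libraries, and library 15 did not stand out for it. Its log2 differences were 1.76 ± 0.887 (edgeR adjusted p = 0.433), -0.54 ± 0.922 (0.815) and 1.23 ± 0.913 (0.492) in the same order of comparisons, the last 2 being -0.55 (0.773) and 1.21 (0.438) without library 15.

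Of the 5 fitted genes that were not picked, none passed at an edgeR adjusted p under 0.05 in MC903 resident against untreated resident cells, where 2.25% of all genes fitted did. None had an unadjusted p under 0.05 there, and neither DESeq2 nor limma voom called any. In bone marrow against MC903 resident cells none of the 5 passed in edgeR (2.27% of all genes), 2 had an unadjusted p under 0.05, DESeq2 called 1 and limma voom 0; without library 15 none passed in edgeR either (2.89% of all genes). The standard errors of these genes reach 2.02 on the log2 scale, so a difference that missed the threshold is not shown to be absent. Over all 21014 genes, 2654, 3710 and 4472 had an unadjusted edgeR p under 0.05 in the 3 comparisons. The order is MC903 resident against untreated resident, bone marrow against MC903 resident and bone marrow against untreated resident cells. DESeq2 called 1072, 1720 and 2757 genes in this order, and limma voom 1358, 2017 and 2194. List counts by these criteria below stand beside these totals.

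**Figure D2:**
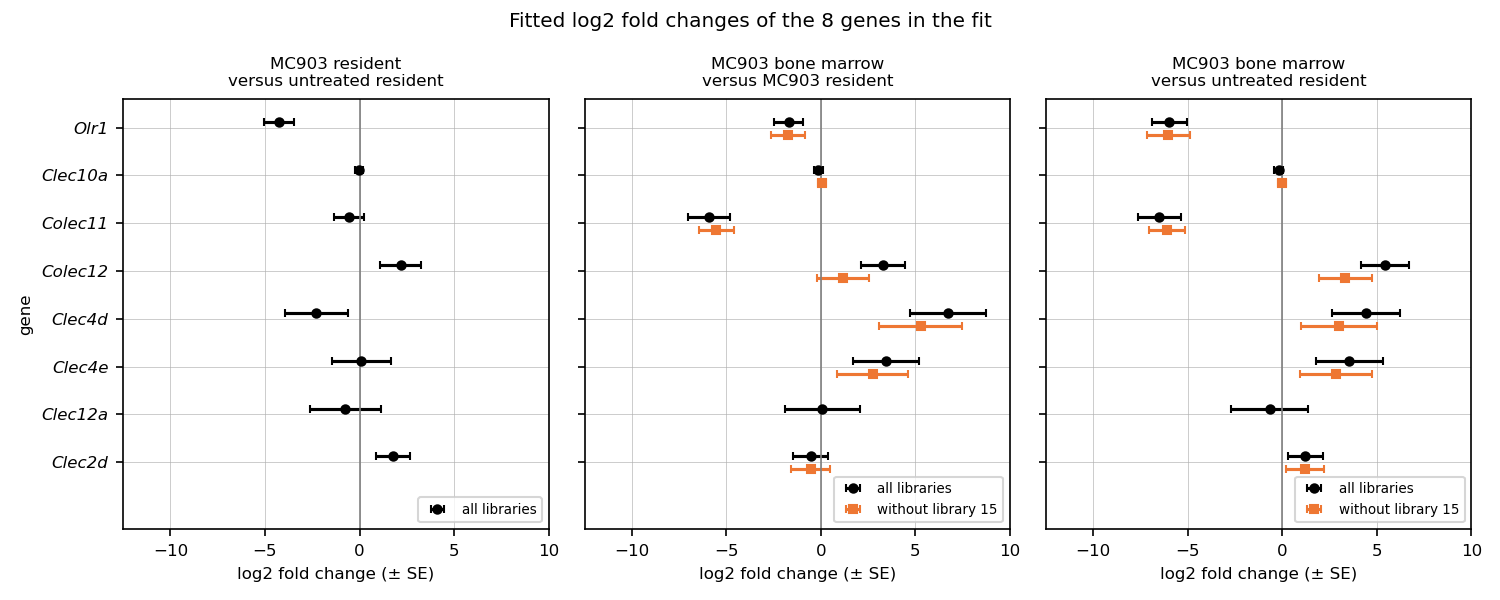
Fitted log2 fold change of the 8 genes in the fit, with its SE, in the 3 comparisons. Black points use all libraries, and orange squares leave out bone marrow library 15 (not drawn for Clec12a, which then has no count in bone marrow cells). Olr1 lies at -4.26, -1.71 and -5.97, Colec11 lies at -0.56, -5.94 and -6.50, and the Colec12 value against untreated cells moves from 5.46 to 3.34 without library 15.

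Of the 10 genes 7 lie on chromosome 6, and Clec2d, Clec12a, Clec7a and Olr1 are within a stretch of lectin genes from 129180615 to 129507165 that holds 14 annotated genes. The genes of this stretch had unlike patterns. Median levels in untreated resident, MC903 resident and bone marrow cells were 836, 293 and 242 CPM for Cd69, an early activation marker of lymphocytes. They were 149, 165 and 23.3 CPM for Clec12b, which encodes an inhibitory receptor, 3.21, 10.1 and 0.0346 CPM for Clec1b, the CLEC-2 receptor of platelets, and 219, 13.2 and 5.46 CPM for Olr1. Clec7a, the gene next to Olr1, had a median of 0 in each group. Clec12b was named after its values were seen: untreated libraries had 107 to 176 CPM, MC903 resident libraries 120.3 to 235 CPM and bone marrow libraries 0.0835 to 40.9 CPM. Its bone marrow libraries thus lay below all resident libraries, as those of Colec11 did, but the differences did not pass the test (edgeR adjusted p = 0.120 against MC903 resident and 0.103 against untreated resident cells).

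**Figure D3:**
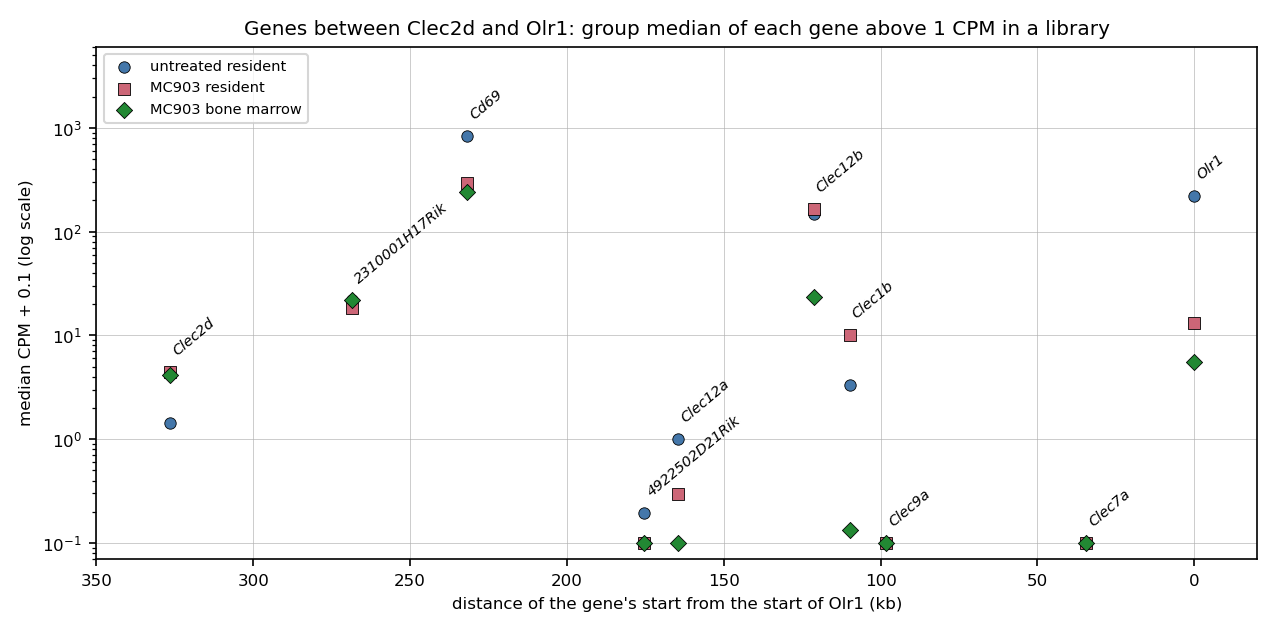
Median CPM plus 0.1 (log axis) per group of the genes between Clec2d and Olr1 that exceeded 1 CPM in any library, against the distance in kb of each gene's start from the start of Olr1. Medians of Cd69, Clec12b and Olr1 are above 100 CPM in untreated cells, and those of Clec12b drop from 165 CPM in MC903 resident to 23.3 CPM in bone marrow cells.

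A list of 58 other C-type lectin and collectin genes was used as background for the family, of which 29 passed the filter. Over the 14 libraries, 3 to 6 of the 58 exceeded 10 CPM in every library but 15, where 12 did. Over the floor were 42 and 44 of the 58 in MC903 resident libraries 7 and 8 and 36 in library 15, against 18 to 29 in the other resident and 10 to 12 in the other bone marrow libraries. Libraries 7, 8 and 15 also had the most genes with a count, 34560, 35246 and 32814 against 16025 to 28790 elsewhere. The medians of the list include such sparse genes, and the part of this difference in them was not tested. In MC903 resident against untreated resident cells 0 of 29 were called in edgeR (1 at an unadjusted p under 0.05; 0 in DESeq2 and 2 in limma voom), beside 2.25% of all genes, and their median log2 fold change was 0.79 beside 0.24 for all genes. Bone marrow cells had 1 of the 29 higher than MC903 resident cells in edgeR and none lower, where 2.27% of all genes were called. In that comparison 13 of the 29 had an unadjusted edgeR p under 0.05, beside 3710 of all 21014 genes. DESeq2 and limma voom each called 1 higher and 5 lower. Over all genes DESeq2 called 445 higher and 1275 lower, and limma voom 672 and 1345. The median was -0.83 beside -0.28 for all genes. Without library 15 it was -5.61, or -2.51 with genes at the floor in a whole group set to their bound, over 37 genes of which 22 were at the floor in a group, beside -0.84 or -0.75 for all genes. The gene called was Cd93, which encodes a C-type lectin-like receptor known from endothelium and myeloid cells. It was at 229.8, 226, 232 and 142 CPM in bone marrow libraries 11, 13, 14 and 15, at 59.4 to 128 CPM in MC903 resident and at 74.5 to 162 CPM in untreated libraries. Cd93 rose against MC903 resident cells, by 1.16 on the log2 scale (SE 0.263; edgeR adjusted p = 0.0210; 1.31 and 0.00608 without library 15), with no overlap; library 15 was the lowest of its group.

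Against untreated resident cells 1 of the 29 was lower in bone marrow cells and none higher in edgeR, a share no larger than the 6.87% of all genes called in either direction. There 12 had an unadjusted edgeR p under 0.05, beside 4472 of all 21014 genes. DESeq2 called 1 higher and 3 lower, beside 1287 and 1470 of all genes. For limma voom it was 1 higher and 2 lower, beside 1081 and 1113. The median was -0.70, or -0.06 with the bounds, beside -0.14 or -0.13 for all genes. Without library 15 it was -3.38, or -1.63 with the bounds, beside -0.62 or -0.39 for all genes. The gene was Cd69, at -1.83 ± 0.460 (SE; edgeR adjusted p = 0.0240), and -1.57 without library 15 (0.0547). With library 15 left out, 37 of the 58 passed the filter, and Cd93 was called higher and Clec1b lower against each resident group. Of all genes 2.89% were called against MC903 resident and 6.36% against untreated resident cells in that setting. The edgeR adjusted p for Clec1b was 0.00477 against MC903 resident and 0.0116 against untreated resident cells. Libraries 11, 13 and 14 had 0, 2 and 0 counts of Clec1b, all at the floor, so the size of its fold is not measured. Besides Clec4n and Clec7a, lectin genes high in library 15 alone included Mrc1 (515 CPM), the macrophage mannose receptor, Clec4a2 (135), Clec4a3 (138), Cd302 (127), Clec4a1 (70.7) and Clec5a (58.1 CPM), named after their values were seen. In the other 13 libraries Mrc1 reached at most 9.14 CPM, in library 14.

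**Figure D4:**
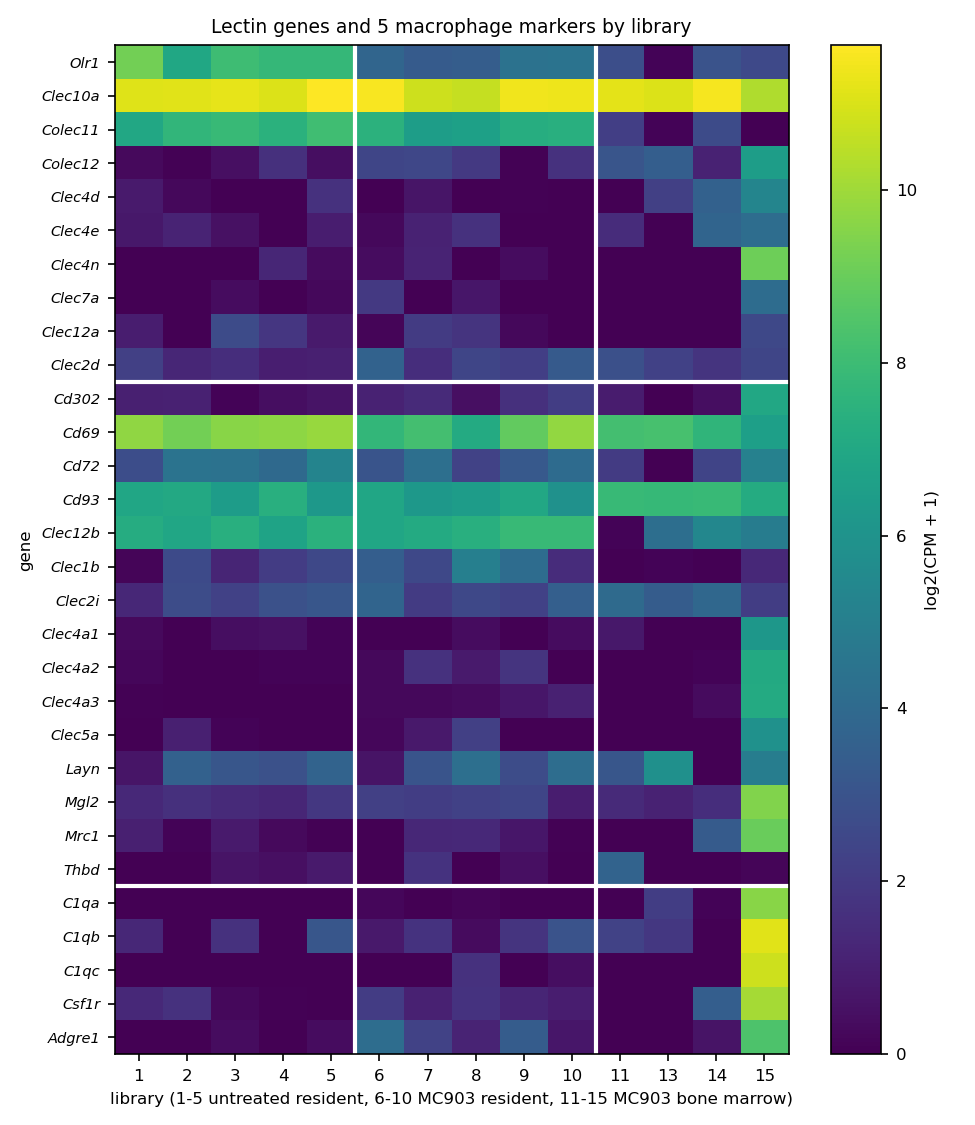
Level of the 10 genes, of the other C-type lectin genes above 10 CPM in any library and of 5 macrophage markers, as log2 of CPM plus 1, with libraries in columns ordered by group. Clec10a is high in every column, and the column of library 15 holds Clec4n, Mgl2, Mrc1 and the C1q genes at high levels that the other columns lack.

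Of 26 Nkrp1 and other Klr receptor genes, among which the Nkrp1 (Klrb1) genes encode the receptors of Clec2 proteins, 7 passed the filter and 0 were called in edgeR in any of the 3 comparisons (0, 2 and 2 at an unadjusted p under 0.05; DESeq2 called 0, 1 and 1, and limma voom 0, 1 and 0). Of all genes 2.25%, 2.27% and 6.87% were called, so 0 of 7 is not apart from that share. Klrb1c, the most abundant of 5 genes of the Nkrp1 group, reached 5.31 CPM in MC903 resident library 7 and was at 0 in 5 libraries. Klrb1, Klrb1a, Klrb1b and Klrb1f were at most at 2.48, 1.33, 0.630 and 0.311 CPM in any library.

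Among 19 adaptor and signalling genes of C-type lectin receptors, 18 passed the filter. In MC903 resident against untreated resident cells Bcl10, which links CARD9 to NF-κB, fell by 1.39 on the log2 scale (SE 0.232, edgeR adjusted p = 0.00145), and it was the only call in edgeR. There 4 of the 18 had an unadjusted edgeR p under 0.05, beside 2654 of all 21014 genes. DESeq2 and limma voom each called 1 higher and 2 lower. Over all genes DESeq2 called 600 higher and 472 lower, and limma voom 661 and 697. Of all genes 2.25% were called in edgeR in that comparison, 2.27% in bone marrow against MC903 resident and 6.87% in bone marrow against untreated resident cells. The libraries of these 2 groups did not overlap for Bcl10, with 130 to 282 CPM in untreated and 54.8 to 91.1 CPM in MC903 resident cells. Between bone marrow and MC903 resident cells 0 were called in edgeR, 5 had an unadjusted p under 0.05, and DESeq2 called 1 and limma voom 2. In bone marrow against untreated resident cells Tyrobp, which encodes the adaptor DAP12, rose by 1.08 ± 0.182 (edgeR adjusted p = 0.000605; 0.89 and 0.00173 without library 15). There Fyn, a Src-family kinase, fell by 1.22 on the log2 scale (edgeR adjusted p = 0.00472; -0.98 and 0.00764 without library 15). Bcl10 fell by 0.83 (edgeR adjusted p = 0.0456; -0.84 and 0.0668 without library 15). Hcst, which encodes the adaptor DAP10 and was named after its values were seen, passed without library 15 (1.06, edgeR adjusted p = 0.0257) and did not with it (0.88 and 0.0712). The Fc receptor gamma chain gene Fcer1g, shared by Mincle, Dectin-2 and the IgE receptor, was at 1374 to 2297 CPM in all 14 libraries, whereas Card9 was under 1 CPM in all but libraries 13 and 15, with 20.5 and 25.7 CPM. The list medians were -0.10, 0.05 and -0.18 on the log2 scale in the 3 comparisons, beside 0.24, -0.28 and -0.14 for all genes. Without library 15 the last 2 were -0.0027 and -0.08.

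A list of 13 inflammatory genes that C-type lectin signalling can induce, of which 12 passed the filter, held 3 genes that fell and 0 that rose in MC903 resident against untreated resident cells (median -0.88 beside 0.24 for all genes). Of all genes 2.25% were called there in edgeR. DESeq2 called 5 of the 12 lower, beside 472 of all 21014 genes, and limma voom 6, beside 697. The 3 genes were Nlrp3 at -3.13 ± 0.470 (SE, edgeR adjusted p = 0.000620), Tnf at -1.99 ± 0.207 (1.277e-05) and Egr3 at -0.78 ± 0.204 (0.0452). Between bone marrow and MC903 resident cells (2.27% of all genes called) the inflammasome gene Nlrp3 rose, at 2.30 ± 0.470 (edgeR adjusted p = 0.00933), and the transcription factor gene Egr3 fell, at -1.23 ± 0.222 (0.00348). Without library 15 these were 2.52 (edgeR adjusted p = 0.00246) and -1.19 (0.00607). Against untreated resident cells 3 of the 12 were lower in bone marrow cells (6.87% of all genes were called in either direction), Egr2, Egr3 and Tnf, although the list's median was 0.49, above that of all genes. All 3 were also called without library 15, at -4.41 (edgeR adjusted p = 0.0256), -1.99 (1.584e-05) and -1.77 (2.424e-05), with a list median of 0.34.

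The lectin pathway of complement was represented by 12 further genes, of which 8 passed the filter. The complement gene C2, whose product the MASP proteases cleave, was at 39.97 to 55.2 CPM in untreated and 28.8 to 71.7 CPM in MC903 resident libraries. It was at 1.71, 0.0346, 4.38 and 10.7 CPM in bone marrow libraries 11, 13, 14 and 15. C2 fell in bone marrow cells by 3.74 on the log2 scale against MC903 resident (SE 0.822, edgeR adjusted p = 0.0245) and by 3.48 against untreated resident cells (SE 0.812, edgeR adjusted p = 0.0141), also without library 15 (-4.78 and 0.00205, -4.53 and 0.00115), and no other gene of the list was called. Of all genes 2.27% and 6.87% were called in these 2 comparisons, and 2.89% and 6.36% without library 15. Like Colec11, it separated all bone marrow libraries from all resident ones. Between the resident groups, where 2.25% of all genes were called, 0 of the 8 were, with 0 at an unadjusted p under 0.05 and 0 in DESeq2 and limma voom. The MASP genes Masp1 and Masp2 reached at most 9.64 and 3.98 CPM, and the mannose-binding lectin genes Mbl1 and Mbl2 at most 1.16 and 0.202 CPM.

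Of 17 other scavenger and lipoprotein receptor genes, to which Olr1 and Colec12 are related by function, 14 passed the filter. In MC903 resident against untreated resident cells 0 were called in edgeR (2.25% of all genes), 2 had an unadjusted p under 0.05, and DESeq2 called 0 and limma voom 1. In bone marrow against MC903 resident cells, where 2.27% of all genes were called, Cd163 and Cd68 were higher, by 4.25 ± 0.980 (SE, edgeR adjusted p = 0.0256) and 3.24 ± 0.730 (0.0392). Both are macrophage genes, and library 15 had 179 and 822 CPM of them. Without it Cd68 remained called at 1.78 ± 0.409 (edgeR adjusted p = 0.0159) and Cd163 did not, at 2.07 (0.153). Against untreated resident cells 5 of the 14 were higher in bone marrow cells, led by Cxcl16 at 10.01 and Stab1 at 5.85, both lost without library 15, at 3.98 and 3.33 (edgeR adjusted p = 0.150 and 0.151). Of all genes 3.49% were called higher in that comparison. Without library 15, 15 genes were fitted and 1 was called higher there, where 6.36% of all genes were called in either direction. The list medians were 1.08, 1.52 and 2.77 beside 0.24, -0.28 and -0.14 for all genes, and the last 2 were -0.16 and -0.13 without library 15, beside -0.84 and -0.62 for all genes.

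For each of the 3 abundant members the genes with the most similar levels over the 14 libraries were found by Pearson correlation. It used log2 CPM with a prior count of 2. The search covered 7947 fitted genes whose mean was 10 CPM or more, leaving out predicted-gene, clone and mitochondrial symbols. The libraries fall into 3 groups and are not independent of each other, so these values describe likeness and carry no test. Olr1 was most like Rnf167 (r = 0.938), Pnrc1 (0.931) and Ddx3x (0.925), whose medians in untreated resident, MC903 resident and bone marrow cells also descended, for Pnrc1 from 494 to 145 to 99.4 CPM. Clec10a was most like Otulinl (0.935), Id2 (0.908) and Cd200r3 (0.890), a receptor gene of mast cells and basophils with medians of 527, 522 and 528 CPM. Colec11 was most like Klhdc8a (0.980), Dnah14 (0.956) and Olfr915 (0.954). The medians of Klhdc8a were 68.1, 48.1 and 3.96 CPM, the same order of groups as for Colec11.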

How the data were processed

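The authors deposited raw counts of reads per gene, whole numbers for 55487 genes in 14 columns, with gene coordinates and gene length per the file headers. The submitters' processing notes name STAR, featureCounts and the build mm10; versions and the strand setting were not given in the sources used here. Complementary DNA was made with SMART-Seq HT and libraries with Nextera XT, per the labels' protocols, without molecular identifiers, so floors cover counting error only. Of the identifiers 55394 had a symbol, and 55094 matched GENCODE M21 (GRCm38) with the same coordinates, all 10 genes among them.

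Libraries were grouped by their labels. Genes passing filterByExpr by group (minimum count 10, minimum total 15; 21014 genes) were scaled by TMM and fitted in 1 model over all 14 libraries with edgeR 4.0.16 (glmQLFit, robust, and glmQLFTest; R 4.3.3). Adjusted p-values are Benjamini-Hochberg over all genes fitted, called under 0.05. The SE of a fold change was taken from its F statistic. Alternatives used DESeq2 1.42.0, limma 3.58.1 (voomWithQualityWeights), other scalings and filters, only the groups compared, and each library left out. The fit was tested on simulated data. Sequences are from RefSeq (GRCm38.p6).

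The members and lists were chosen with earlier results of these data known, so list counts are not independent evidence. Named genes are all members; from each list, comparison and direction the called genes up to 3 by fold; and 3 genes most like each picked member. Others are marked. Klrh1 was not analysed here, and a gene of the scavenger and lipoprotein receptor list is not reported here.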

Additional observations from a re-analysis of the deposited data

Results flagged for a closer look

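Each value here lay far from the other libraries of its group, by Dixon's criterion for a gap relative to the group's range. In all, 36 groups of libraries (12 genes in 3 groups) were considered. For normally distributed values chance picks out about 1 in 20 groups. That rate does not hold here, because many groups are skewed or hold zeros. A lone value above zeros is always picked out. The number of values flagged is therefore not set against chance. In bone marrow library 15 the high values were Clec4n at 548 CPM and Clec7a at 16.6 CPM and Clec12a at 4.85 CPM, each at 0 in the other 3 bone marrow libraries, and Colec12 at 89.8 CPM, where the next was 10.05 CPM. The same library was low for Cd93, at 142 CPM against 226 to 232 CPM. These 5 values fell in the library with a macrophage and dendritic cell marker sum of 16903 CPM; the part of those cells was not tested.

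Clec10a was highest of the untreated libraries in library 5, at 3263 CPM against 2109.8 to 2408 CPM. The remaining values were under 3 CPM: in untreated library 4 Colec12 at 2.03 CPM and Clec4n at 1.42 CPM, in MC903 resident library 7 Clec4d at 0.577 CPM and Clec4n at 1.27 CPM, and in MC903 resident library 6 Clec7a at 2.80 CPM. The next values in those groups were 0.411, 0.267, 0.0485, 0.311 and 0.643 CPM.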

How the results depend on the processing

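The fold changes of Olr1 and Colec11 kept their sign under every alternative run in all 3 comparisons. Clec10a, near 0, changed sign in MC903 resident against untreated resident cells to 0.072 (DESeq2 size factors or Wald test), 0.12 (scaling from, or testing only, genes over a mean of 10 CPM) and 0.0052 (only the groups compared). Leaving out 1 library gave -0.14 to 0.13 there, above 0 without library 5, 7, 8 or 10. For bone marrow cells it gave -0.33 to 0.0615 against MC903 resident and -0.37 to 0.0049 against untreated cells, above 0 without library 15. Clec4e between the resident groups ran from -0.80 to 0.59, below 0 without library 4, 7 or 8. Clec12a ran from -1.45 to 0.14 there, above 0 without library 3. In bone marrow against MC903 resident cells Clec12a turned to -0.11 (DESeq2 size factors or Wald test), -0.12 (scaling from genes over 10 CPM) and -3.57 (limma), and ran from -7.66 to 0.79 over libraries left out, below 0 without library 6, 9 or 10. Against untreated cells it ran from -8.41 to 0.18, above 0 without library 3. The -7.66 and -8.41 are without library 15, fitted against libraries with no count of Clec12a, and are neither a fold nor a bound. Other causes were not tested.

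Genes called numbered 473 in MC903 resident against untreated, 477 in bone marrow against MC903 resident and 1443 in bone marrow against untreated cells. In this order DESeq2's Wald test gave 1072, 1720 and 2757, and limma 1358, 2017 and 2194. Bone marrow against MC903 resident cells had 748 calls with no filter and 315 with only the groups compared. Leaving out 1 library gave 320 to 516, 298 to 704 and 1122 to 1549. With scaling from genes over 10 CPM, the split of higher and lower calls went from 120 and 353 to 251 and 266 between resident groups, and from 277 and 200 to 178 and 254 in bone marrow against MC903 resident cells; with DESeq2 size factors it was 207 and 294, and 167 and 242. Other lectin genes called numbered 0, 1 and 1 in this order, and 2, 6 and 3 in limma. Against MC903 resident and untreated cells they were 6 and 4 in DESeq2's test and 3 and 2 with no filter. Against untreated cells they were 2 with DESeq2 size factors or scaling from genes over 10 CPM, and 6 testing only those genes. Leaving out 1 library gave 0 to 1, 0 to 2 and 1 to 3. No paired analysis was possible because libraries carry running numbers that no groups share. A level under a library's floor, 0.104 to 0.193 CPM, cannot be told from 0.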
